A study of Mus musculus with 6 samples.

Results

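The genes described here are 10 genes of natural killer (NK) cells and other cytotoxic lymphocytes, namely Gzma, Gzmb, Prf1, Nkg7, Klrb1c, Ncr1, Klrd1, Klrk1, Eomes and Ccl5. They were taken by exact symbol from the 36144 gene rows of the deposited table, and all 10 were found once. The measurements are poly-A RNA sequencing of subcutaneous white fat, a depot beneath the skin of the mouse, in 6 libraries. The sample titles name 3 libraries WT and 3 Tumor, and call them biological replicates 1 to 3. The genotype label gives MSRA WT for the libraries titled WT and MSRA full-body KO for those titled Tumor, and the treatment label is an orthotopic transplant for all 6. The design text has pancreatic ductal adenocarcinoma (PDAC) cells placed into the pancreas of both host genotypes and fat collected 4 to 5 weeks later, whereas the series title contrasts tumour-bearing mice with controls that had none. The labels give neither age nor sex nor strain, do not say how many animals stand behind a library, and do not name the PDAC line. Library identifiers of the groups come from separate number ranges, so groups and any batch that followed them cannot be told apart.

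Msra, the gene the genotype label calls knocked out, stood at 51.1, 59.1 and 56.3 TPM (WT-labelled) against 52.9, 40.0 and 26.9 TPM (Tumor-labelled). It was present where the label says knockout, so each direction below is that of the title labels. TPM is the share of a gene's transcripts among all transcripts of a library after correction for length, and each column summed to 1000000, so library totals are not known. For a transcript with 1 kb of usable length, 3 fragments were worth 0.116 to 0.152 TPM, and the lowest member value, 0.128 TPM of Eomes, comes from a transcript several times longer.

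NK cells are innate lymphocytes that kill stressed, infected or transformed cells without prior priming. They release granules holding perforin, which makes pores, and granzymes, proteases that enter through them, and decide on attack by weighing activating against inhibitory receptors. CD8 T cells share the granule proteins and some of the receptors, while Ncr1 and Klrb1c are largely kept to NK cells and related innate lymphoid cells. White fat holds resident NK and innate lymphoid cells, and the subcutaneous depot of the mouse also encloses a lymph node, which is rich in T and B cells.

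Lymph node transcripts divided the libraries across the groups. The B cell receptor component Cd79a was at 277, 235 and 0.775 TPM (WT-labelled) against 1.71, 449 and 712 TPM (Tumor-labelled). Cd3e, a chain of the T cell receptor complex, was at 119, 64.4 and 0.549 TPM against 2.00, 67.0 and 167 TPM. Little B and T cell RNA was thus held by WT replicate 3 and Tumor replicate 1, the node-poor libraries in what follows, and each result below is given with this division in view. The fat itself was plain in all 6, with Adipoq, the adipocyte hormone, between 721 and 3455 TPM. In bulk tissue, fewer cells of a type and less RNA per cell cannot be told apart.

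No member passed the test between the groups. Limma on log2(TPM + 1) called 0 of the 10 members and 0 of all 14144 tested genes (0%) at an adjusted p below 0.05. The members' adjusted p-values ran from 0.737 to 0.960 (limma), and the smallest over all genes was 0.206. An unadjusted p below 0.05 was reached by 3 members, Gzma, Gzmb and Klrb1c, all higher in the libraries labelled Tumor, against 3.75% of all tested genes in that direction. The same 3 members had all 3 libraries labelled Tumor above all 3 labelled WT, as did 11.8% of tested genes. No member had the opposite order, found in 3.24% of tested genes. With scaling factors, described further on, 1 of the 3 kept the upward separation, Klrb1c, by a margin of 2.85 to 2.87 between the nearest libraries. With 3 libraries a side, the smallest two-sided p of an exact permutation test is 0.1, so this order cannot pass on its own. All 10 members had a positive difference, as had 76.8% of tested genes. Their median was 0.63 on the log2 scale against 0.23 over all tested genes, and their own differences ran from 0.31 to 1.19.

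**Figure D1:**
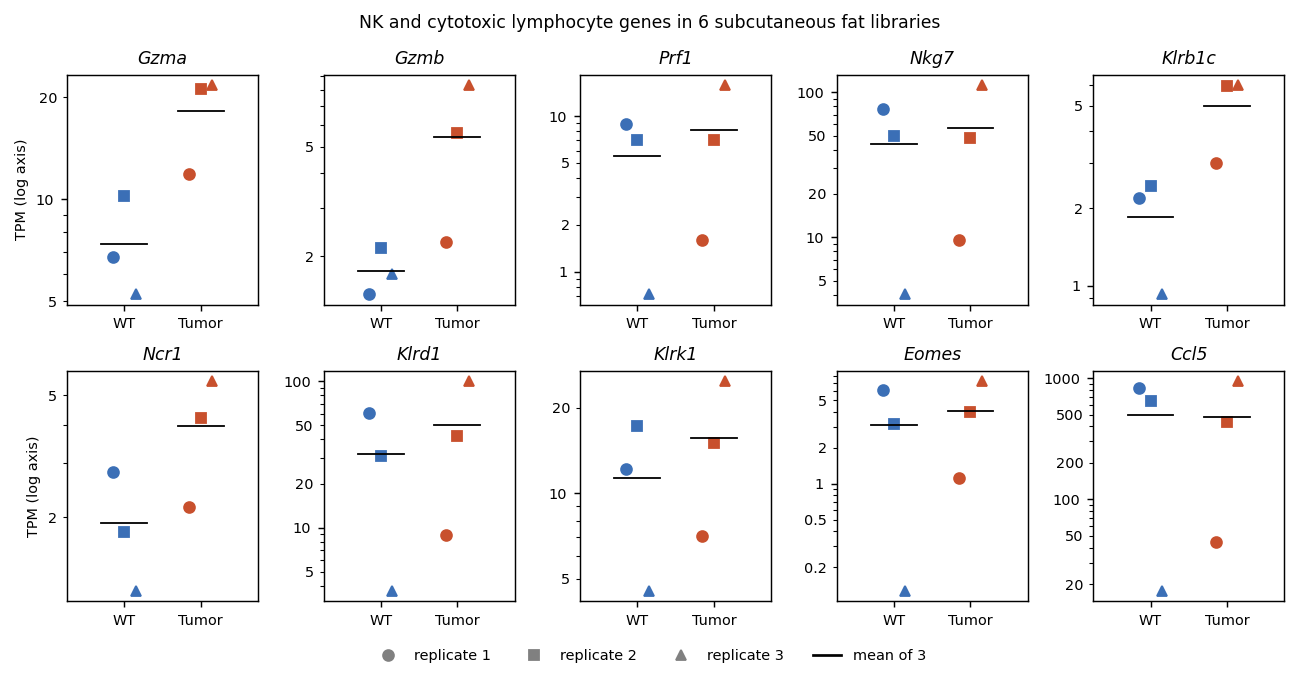
TPM (log axis, scaled per gene) of the 10 members in each library, by group, with the replicate number as symbol and the mean of 3 as a line. Gzma, Gzmb and Klrb1c have every Tumor library above every WT library, of which Klrb1c alone keeps this with scaling factors, narrowly. Nkg7, Klrd1, Prf1, Eomes and Ccl5 have WT replicate 3 and Tumor replicate 1 far below the other 4.

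Granzyme A, encoded by Gzma, is a trypsin-like protease of the killing granule (chromosome 13, 113093825 to 113100981, minus strand, GRCm38). It stood at 6.75, 10.2 and 5.24 TPM (WT-labelled) against 11.9, 21.1 and 21.7 TPM (Tumor-labelled). The groups did not overlap, and the node-poor libraries were the lowest of their group in both. The means were 7.39 ± 2.53 and 18.2 ± 5.49 TPM (SD, n = 3), 2.47-fold higher, and limma gave a log2 difference of 1.19 (SE 0.33, adjusted p = 0.737). That difference exceeded those of 98.9% of tested genes.

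Granzyme B, encoded by Gzmb, cuts after aspartate and starts cell death through caspases (chromosome 14, 56258838 to 56262260, minus strand). It was low, at 1.46, 2.14 and 1.73 TPM (WT-labelled) against 2.26, 5.60 and 8.36 TPM (Tumor-labelled). The groups did not overlap, but the gap between WT replicate 2 and Tumor replicate 1 was 2.14 to 2.26 TPM. With its single annotated transcript these 2 values rest on about 60 and 55 fragments, so the gap cannot be resolved at this depth. The means were 1.77 ± 0.341 and 5.41 ± 3.05 TPM (SD, n = 3), 3.05-fold higher, and limma gave a log2 difference of 1.09 (SE 0.42, adjusted p = 0.737).

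The other granule members overlapped between the groups. Prf1 encodes perforin (chromosome 10, 61297833 to 61304680) and stood at 8.89, 7.00 and 0.716 TPM (WT-labelled) against 1.60, 7.07 and 15.9 TPM (Tumor-labelled). Nkg7, a granule membrane protein needed for efficient killing (chromosome 7, 43437073 to 43438249), stood at 77.0, 49.9 and 4.04 TPM against 9.50, 48.5 and 112 TPM. For both, WT replicate 3 and Tumor replicate 1 were lowest and the groups overlapped widely. The log2 differences were 0.46 (SE 0.93) for Prf1 and 0.52 (SE 1.30) for Nkg7, each smaller than its error. Without WT replicate 3 they were -0.33 and -0.69, and without Tumor replicate 3 they were -0.17 and -0.25.

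Among the receptors, Klrb1c and Ncr1, the pair most restricted to NK cells, had larger ratios between the group means than Klrd1 and Klrk1. The ratio was 1.58-fold for Klrd1 and 1.38-fold for Klrk1, and no receptor passed the test. On the log2 scale that was tested, Ncr1 and Klrd1 were alike, at 0.74 (SE 0.38) and 0.74 (SE 1.21). Klrb1c encodes NK1.1, an activating lectin-like receptor used to identify NK cells in C57BL/6 mice (chromosome 6, 128778485 to 128789215, minus strand). It stood at 2.19, 2.43 and 0.929 TPM (WT-labelled) against 3.01, 5.99 and 6.02 TPM (Tumor-labelled), with no overlap. The means were 1.85 ± 0.809 and 5.00 ± 1.73 TPM (SD, n = 3), 2.70-fold higher, and limma gave a log2 difference of 1.07 (SE 0.37, adjusted p = 0.737). Its annotated span overlaps another gene model on the same strand, Gm44511, and the Klrb1 genes resemble each other, so the split of reads among them is uncertain. Ncr1 encodes NKp46, an activating receptor of NK cells (chromosome 7, 4337724 to 4345164), and stood at 2.82, 1.79 and 1.16 TPM against 2.16, 4.20 and 5.54 TPM. Only Tumor replicate 1 fell inside the range of the libraries labelled WT. Its means were 1.92 ± 0.840 and 3.97 ± 1.70 TPM (SD, n = 3), 2.06-fold higher, and limma gave a log2 difference of 0.74 (SE 0.38, adjusted p = 0.737).

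The receptors that CD8 T cells also carry overlapped between the groups. Klrd1 encodes CD94, the partner of the NKG2 chains (chromosome 6, 129591782 to 129598775), and stood at 60.5, 31.1 and 3.73 TPM (WT-labelled) against 8.98, 42.1 and 99.6 TPM (Tumor-labelled). Klrk1 encodes NKG2D, which binds stress-induced ligands on target cells (chromosome 6, 129610323 to 129623864, minus strand), and stood at 12.1, 17.2 and 4.55 TPM against 7.06, 15.1 and 24.8 TPM. Both were lowest in WT replicate 3 and Tumor replicate 1, and Klrk1 by the smaller margin. The log2 differences were 0.74 (SE 1.21) and 0.44 (SE 0.60). Without WT replicate 3 they were -0.34 and -0.05, and without Tumor replicate 3 that of Klrd1 was -0.02.

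Eomes encodes a T-box transcription factor of NK cells and memory CD8 T cells (chromosome 9, 118478212 to 118486132). It stood at 6.10, 3.19 and 0.128 TPM (WT-labelled) against 1.12, 3.96 and 7.21 TPM (Tumor-labelled). An antisense gene model, Gm33460, overlaps it, and whether counting used strand is not given in the sources used here. Ccl5, a chemokine that draws T cells and monocytes (chromosome 11, 83525778 to 83530518, minus strand), was the most abundant member in every library. It stood at 826, 641 and 17.7 TPM against 44.4, 438 and 940 TPM, and in each group the node-poor library was lowest. The log2 differences were 0.46 (SE 0.82) for Eomes and 0.31 (SE 1.80) for Ccl5. The mean of Ccl5 was slightly lower in the libraries labelled Tumor, 474 ± 449 against 495 ± 424 TPM (SD, n = 3), so its mean and its log2 difference pointed in opposite directions. Without WT replicate 3 the log2 difference was -0.30 for Eomes and -1.46 for Ccl5, and for Ccl5 it was also negative without Tumor replicate 2 (-0.06) or Tumor replicate 3 (-0.61).

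**Figure D2:**
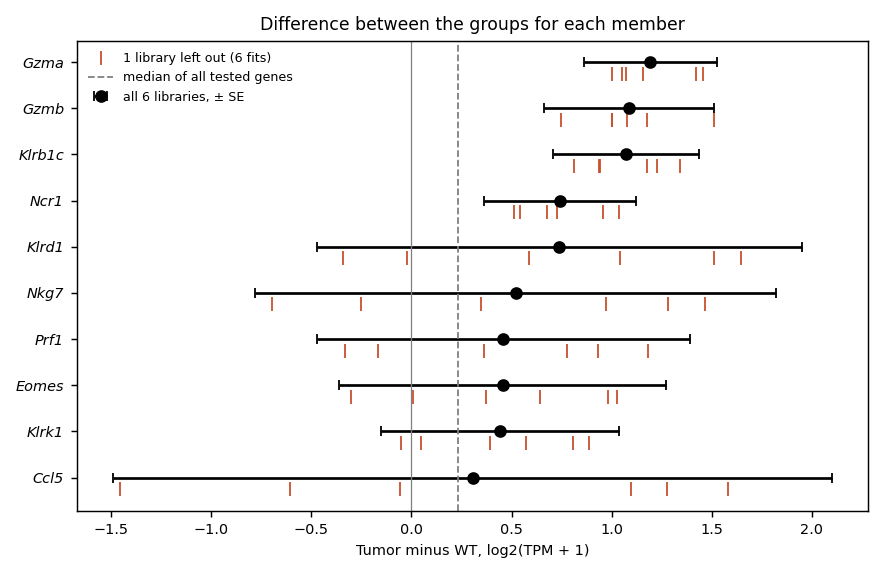
Log2(TPM + 1) difference, Tumor minus WT, for each member: black points are the fit of all 6 libraries with its standard error, red ticks the 6 fits with 1 library left out, and the dashed line the median of all tested genes (0.23). Gzma, Gzmb, Klrb1c and Ncr1 stay above that line in every fit shown, and the other 6 members spread across it.

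The members thus differed in how much they varied within a group. Between the highest and the lowest library labelled WT, Gzma varied 1.94-fold, Gzmb 1.46-fold, Ncr1 2.44-fold, Klrb1c 2.62-fold and Klrk1 3.78-fold. Over the same libraries Prf1 varied 12.4-fold, Klrd1 16.2-fold, Nkg7 19.1-fold, Ccl5 46.7-fold and Eomes 47.6-fold. Cd3e varied 216-fold and Cd8a, a chain of the CD8 co-receptor, 247-fold. Among the libraries labelled Tumor the members varied from 1.83-fold for Gzma to 21.2-fold for Ccl5. The residual SD within groups was 0.44 on the log2 scale for Gzma and 2.69 for Ccl5, against a median of 0.37 over all tested genes. Even the most abundant members therefore carried standard errors larger than their differences.

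**Figure D3:**
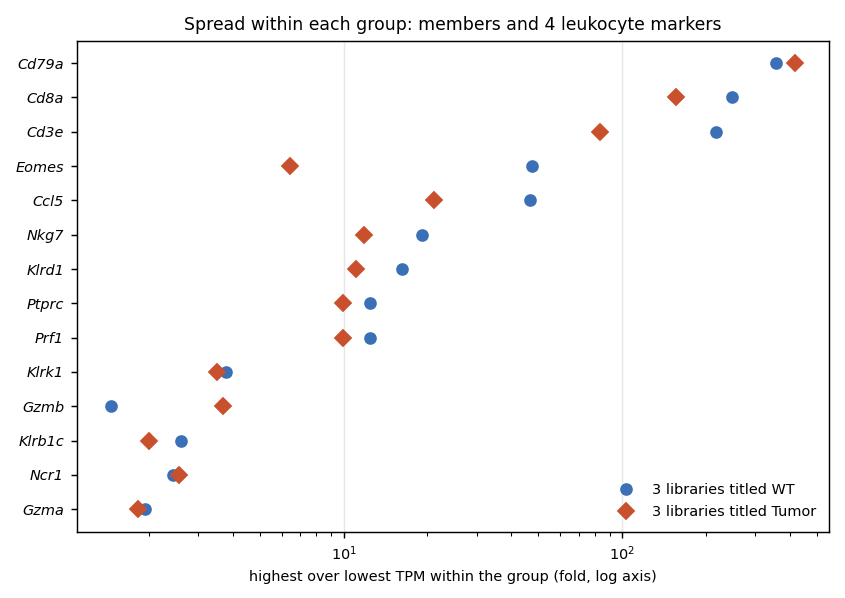
Highest over lowest TPM (fold, log axis) among the 3 libraries of each group, for the 10 members and for Cd3e, Cd8a, Cd79a and Ptprc. Gzma, Gzmb, Klrb1c, Ncr1 and Klrk1 stay under 4-fold in both groups, and Cd3e, Cd8a and Cd79a exceed every member.

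Set against Cd3e, every member stood highest in the node-poor libraries. Low Cd3e, the divisor here, was part of how those libraries were picked, so that order was largely set beforehand. The spans below likewise carry the spread of Cd3e itself, and the share of all tested genes with that order was not computed. Gzma was at 0.0569 and 0.158 TPM per TPM of Cd3e in WT replicates 1 and 2 but at 9.55 in WT replicate 3, and at 5.95 in Tumor replicate 1 but 0.314 and 0.130 in Tumor replicates 2 and 3. Nkg7 moved less, with 0.649 to 0.775 in the 4 node-rich libraries and 4.76 and 7.35 in the others. Over all 6 libraries the ratio to Cd3e spanned 168-fold for Gzma, 256-fold for Gzmb, 91.4-fold for Klrb1c and 88.6-fold for Ncr1, but 5.72-fold for Ccl5 and 11.3-fold for Nkg7. Set against Ncr1 the order turned round. Klrb1c per TPM of Ncr1 spanned 1.84-fold, Gzma 2.38-fold, Gzmb 2.92-fold and Klrk1 2.95-fold, whereas Prf1 spanned 6.33-fold, Klrd1 6.66-fold, Nkg7 8.01-fold, Eomes 19.5-fold and Ccl5 23.5-fold. None of these ratios to Ncr1 separated the groups, and the share of all tested genes that would was not computed. In the ratio to Ptprc, the pan-leukocyte CD45, 1 of the 10 members separated them, singled out after its values were seen. Of tested genes 0.891% separated downward in that ratio. The members were looked at in both directions and against Cd3e, Ncr1 and Ptprc, and no share over all genes covers that search. That 1 member separated is therefore no result about Prf1. Prf1 was at 0.0537, 0.0796 and 0.0538 (WT-labelled) against 0.0513, 0.0373 and 0.0511 (Tumor-labelled), a gap of 0.0513 to 0.0537 at its narrowest.

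**Figure D4:**
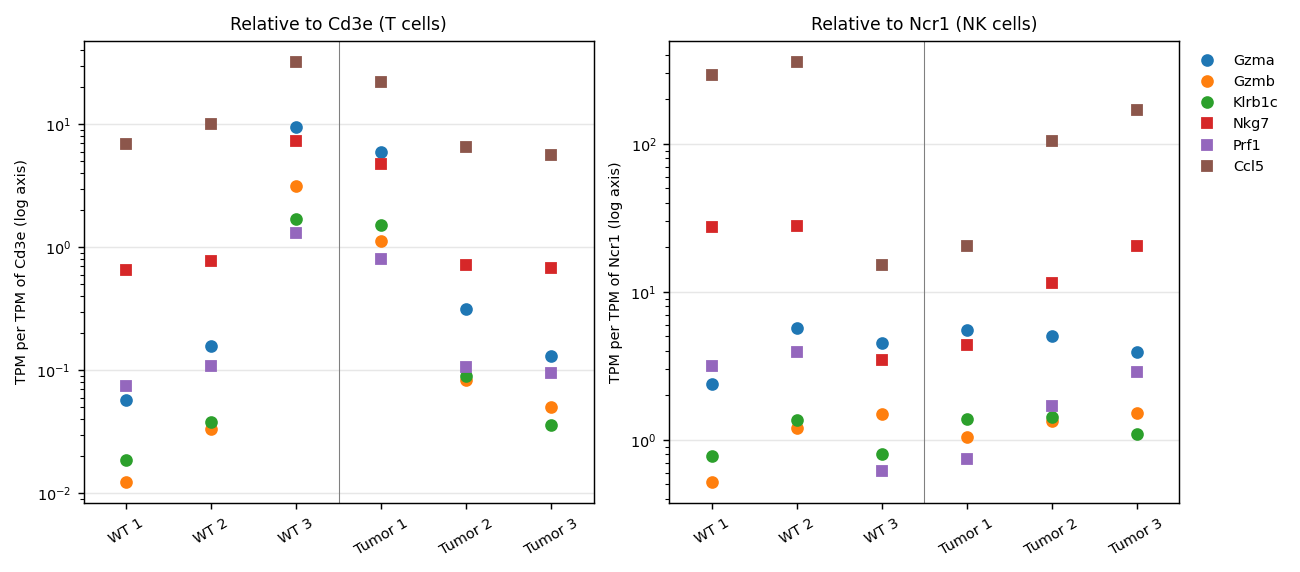
TPM of 6 members per TPM of Cd3e (left) and per TPM of Ncr1 (right) in each library, log axes. On the left WT 3 and Tumor 1, picked in part by low Cd3e, the divisor, stand above the other libraries for every gene. On the right Gzma, Gzmb and Klrb1c (circles) stay nearly level while Nkg7, Prf1 and Ccl5 (squares) drop in WT 3 and Tumor 1.

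The members were also compared within the division by lymph node content. In Tumor replicate 1 all 10 members stood above WT replicate 3, as did 68.2% of tested genes, with 1 library on each side and no test. The ratios were 2.27-fold for Gzma, 3.24-fold for Klrb1c, 1.87-fold for Ncr1 and 1.31-fold for Gzmb, against a median of 1.14-fold over all tested genes. Those of the other members were as large, at 2.23-fold for Prf1, 2.35-fold for Nkg7, 2.41-fold for Klrd1, 1.55-fold for Klrk1 and 2.51-fold for Ccl5. For Eomes it was 8.76-fold, from 0.128 TPM in WT replicate 3. T cell transcripts also differed between these 2 libraries, with summed levels of the 16 T cell markers of 38.6 and 20.8 TPM. In the 4 node-rich libraries Gzma, Gzmb, Klrb1c and Ncr1 had both libraries labelled Tumor above both labelled WT. This was also true of 40.9% of tested genes, so 4 of 10 members is no more than the background. There the means differed 2.53-fold for Gzma, 3.88-fold for Gzmb, 2.59-fold for Klrb1c and 2.11-fold for Ncr1, with a median of 1.21-fold over all tested genes. For the other members the ratio ran from 0.939-fold (Ccl5) to 1.55-fold (Klrd1). Limma on those 4 libraries again called 0 members. B cell content was not matched among them. All 10 B cell markers also had both libraries labelled Tumor above both labelled WT, with sums of 1777 and 2570 against 1072 and 831 TPM. The T cell sums overlapped, at 1291 and 3190 against 2006 and 1403 TPM. The part of node content in the members' values was not tested.

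The scaling of the libraries bore on the separation. Factors that bring the median gene to the same level in each library (median-ratio) or the upper quartile (upper-quartile) left Klrb1c as the 1 member without overlap, where 3.52% and 3.32% of tested genes separated upward. With median-ratio factors Gzma in WT replicate 2 was at 11.9 and in Tumor replicate 1 at 11.4, and Gzmb at 2.50 and 2.16. Klrb1c was nearly tied between the same libraries, at 2.85 and 2.87, and with upper-quartile factors at 2.85 and 2.95. The log2 differences were then 0.98 for Gzma, 0.91 for Gzmb and 0.90 for Klrb1c, with an all-gene median of 0.03.

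Markers of other cells were read in the same libraries, and limma called 0 genes of any marker list. Macrophage and monocyte markers had summed levels of 1831 to 2354 TPM against 2593 to 4400 TPM, without overlap in unscaled TPM and with none at 0. Divided by either set of scaling factors, the sum of Tumor replicate 2 fell below those of WT replicates 1 and 2, so the scaled sums overlapped. Of the 9 markers 8 had a positive difference, as did 76.8% of tested genes, and Csf1r, Cd68 and Lyz2 did not overlap (11.8% of tested genes). With either set of scaling factors Lyz2 alone of the 3 stayed without overlap (3.52% and 3.32% of tested genes). Their median difference of 0.49 was 0.18 without both node-poor libraries. T cell sums overlapped widely, at 20.8 to 2006 against 38.6 to 3190 TPM, as did B cell sums, at 5.23 to 1072 against 12.1 to 2570 TPM. All 16 T cell and all 10 B cell markers had a positive difference with all libraries, but the sign turned with single libraries. With WT replicates 1, 2 and 3 left out in turn, the T cell median of 0.27 became 1.29, 0.99 and -1.40, and with Tumor replicates 1, 2 and 3 left out it became 2.06, -0.17 and -0.74. In the same order the B cell median of 0.97 became 2.08, 1.69 and -0.99, then 3.11, -0.06 and -0.23. The CD8 pair summed to 0.491 to 196 against 1.48 to 265 TPM, and 5 CD4 and regulatory T cell markers to 1.68 to 102 against 3.96 to 176 TPM, with Cd40lg listed at 0 in WT replicate 3 and Tumor replicate 1. The 4 pan-leukocyte genes summed to 188 to 2259 against 451 to 4015 TPM, and the 6 node stroma genes, of which Chst4 was at 0 in the node-poor libraries, to 46.3 to 2306 against 58.0 to 3438 TPM. Skeletal muscle was lowest in WT replicates 1 and 3, with 9.04 to 2232 TPM over its 5 markers against 487 to 1954 TPM. Mast cell sums, a further possible source of granzyme B, were 130 to 235 against 86.5 to 205 TPM, and those of plasmacytoid dendritic cells 105 to 222 against 198 to 276 TPM. Markers of gamma delta and invariant NKT cells summed to 22.4 to 43.0 against 31.2 to 37.5 TPM, neutrophil markers to 24.6 to 340 against 13.2 to 90.5 TPM, erythroid markers to 625 to 1547 against 434 to 2143 TPM, and adipocyte markers to 14715 to 26948 against 5932 to 21947 TPM. Their part in the members' values was not tested. With the mean level of the T cell list as a covariate, limma called 0 of the 10 members and 0.00707% of tested genes, and the differences of Gzma, Gzmb, Klrb1c and Ncr1 were 1.15, 1.04, 1.02 and 0.69. Those of Prf1, Nkg7, Klrd1, Klrk1, Eomes and Ccl5 were smaller, at 0.30, 0.29, 0.53, 0.35, 0.32 and -0.0097. With the B cell list it again called 0 members and 0.00707% of tested genes, the first 4 differences were 1.09, 0.98, 0.95 and 0.62, and the other 6 were 0.11, 0.02, 0.27, 0.23, 0.15 and -0.39.

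Promoters are shown for 4 members because they share a short word. RefSeq on GRCm38.p6 gave a window of 250 bases before to 50 after the start for 8 of the 10 members. The motifs were searched on both strands: TGTGGTT for Runx factors, GGTGTGA for T-box factors such as Eomes, TTCNNNGAA for STAT factors and CCGGAAG for ETS factors, none of which holds another. The Runx word lay in the windows of Gzma, Gzmb, Ncr1 and Klrk1, and in 5.29% of 32544 distinct promoter windows of that length. The T-box word lay in that of Nkg7 (3.95% of all), the STAT word in those of Nkg7 and Gzmb (8.33%), and the ETS word in none (8.91%). Such a match is a description of letters and not a binding site. In the sequences below, read 5′ to 3′ along the gene, capitals mark the Runx word or its reverse complement and, near the end of Gzmb, the STAT word.
Gzma (chr13:113100932-113101231, minus strand): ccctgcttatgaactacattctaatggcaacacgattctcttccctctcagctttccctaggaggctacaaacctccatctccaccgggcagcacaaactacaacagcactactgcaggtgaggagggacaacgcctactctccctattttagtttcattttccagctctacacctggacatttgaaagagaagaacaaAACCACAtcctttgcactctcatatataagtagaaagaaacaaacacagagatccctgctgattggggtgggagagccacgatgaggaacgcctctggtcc
Gzmb (chr14:56262285-56262584, minus strand): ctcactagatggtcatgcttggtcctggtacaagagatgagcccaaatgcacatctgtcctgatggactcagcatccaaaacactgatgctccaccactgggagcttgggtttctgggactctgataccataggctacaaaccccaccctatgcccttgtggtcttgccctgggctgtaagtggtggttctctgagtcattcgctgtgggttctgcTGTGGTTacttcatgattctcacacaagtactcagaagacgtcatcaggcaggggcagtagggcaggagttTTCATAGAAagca
Ncr1 (chr7:4337465-4337764, plus strand): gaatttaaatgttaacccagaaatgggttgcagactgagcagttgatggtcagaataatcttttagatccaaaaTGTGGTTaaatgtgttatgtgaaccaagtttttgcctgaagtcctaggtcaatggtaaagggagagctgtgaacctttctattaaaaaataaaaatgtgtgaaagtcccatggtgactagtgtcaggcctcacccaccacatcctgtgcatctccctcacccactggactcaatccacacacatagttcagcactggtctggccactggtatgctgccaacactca
Klrk1 (chr6:129623815-129624114, minus strand): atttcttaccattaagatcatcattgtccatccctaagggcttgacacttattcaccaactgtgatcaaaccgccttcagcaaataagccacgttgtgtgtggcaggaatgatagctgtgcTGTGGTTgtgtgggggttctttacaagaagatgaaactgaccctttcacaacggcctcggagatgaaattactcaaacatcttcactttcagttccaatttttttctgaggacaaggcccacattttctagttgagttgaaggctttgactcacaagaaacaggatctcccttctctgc

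Of the factors that read such words, Runx3, which shapes cytotoxic lymphocytes, stood at 18.7, 7.22 and 0.296 TPM against 1.05, 13.5 and 22.6 TPM. Tbx21, the T-box factor T-bet, stood at 3.98, 2.66 and 0.348 TPM against 0.815, 3.15 and 3.66 TPM. Both were lowest in WT replicate 3 and Tumor replicate 1, as Eomes was. These 2 genes were singled out after their values were seen. All 14 transcription factors of the list had a positive difference (76.8% of tested genes) and 0 were called. Of them 1, Prdm1, separated the groups upward (11.8% of tested genes), and with scaling factors 0 did. Leaving out replicate 3 took the list median of 0.40 to 0.05 (WT) or 0.06 (Tumor), and leaving out replicate 1 took it to 0.67 (WT) or 0.82 (Tumor). The 3 most abundant were Irf8 at 102, 78.2 and 12.8 TPM against 24.1, 141 and 193 TPM, Ets1 at 97.2, 51.9 and 23.9 TPM against 20.98, 116 and 174 TPM, and Id2. Id2, which holds innate lymphocytes in their lineage, stood at 76.1, 61.4 and 24.6 TPM against 39.7, 76.3 and 124 TPM.

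Other NK receptors had low levels. Of 29 genes listed 28 were in the table and 23 passed the filter of 1 TPM in 3 libraries. All 23 had a positive difference (76.8% of all tested genes), 0 were called, and the list median was 0.69. Leaving out replicate 3 took it to 0.36 (WT) or 0.41 (Tumor). Of the 28, 4 separated the groups upward (9.17% of all genes above 0 in the table), and they are named after their values were seen: Klra4, Klrb1a, Klri2 and Cd244a. With scaling factors Klrb1a and Klri2 still did (3.52% and 3.32% of tested genes). Klra4, a Ly49 receptor, stood at 2.85, 3.16 and 0.463 TPM against 3.85, 4.16 and 6.27 TPM. Klrb1a, a relative of NK1.1, stood at 0.612, 0.593 and 0.504 TPM against 1.67, 1.45 and 1.83 TPM. It reached the filter through the libraries labelled Tumor alone, as did Klri2. A gene that passes in this way has a positive difference and no overlap by construction. Both genes are counted among the 23 positive differences and in the list median. The Ly49 and Klrb1 genes are near copies, and the division of reads between them is uncertain. The most abundant of the list were Fcgr3, an Fc receptor shared with macrophages, Slamf7 and Cd96. Fcgr3 stood at 38.4, 36.9 and 67.5 TPM against 149, 36.1 and 35.1 TPM, highest in Tumor replicate 1. Slamf7 stood at 13.4, 11.0 and 1.92 TPM against 9.83, 19.1 and 25.5 TPM, and Cd96 at 20.9, 12.3 and 0.133 TPM against 0.507, 13.8 and 30.3 TPM.

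**Figure D5:**
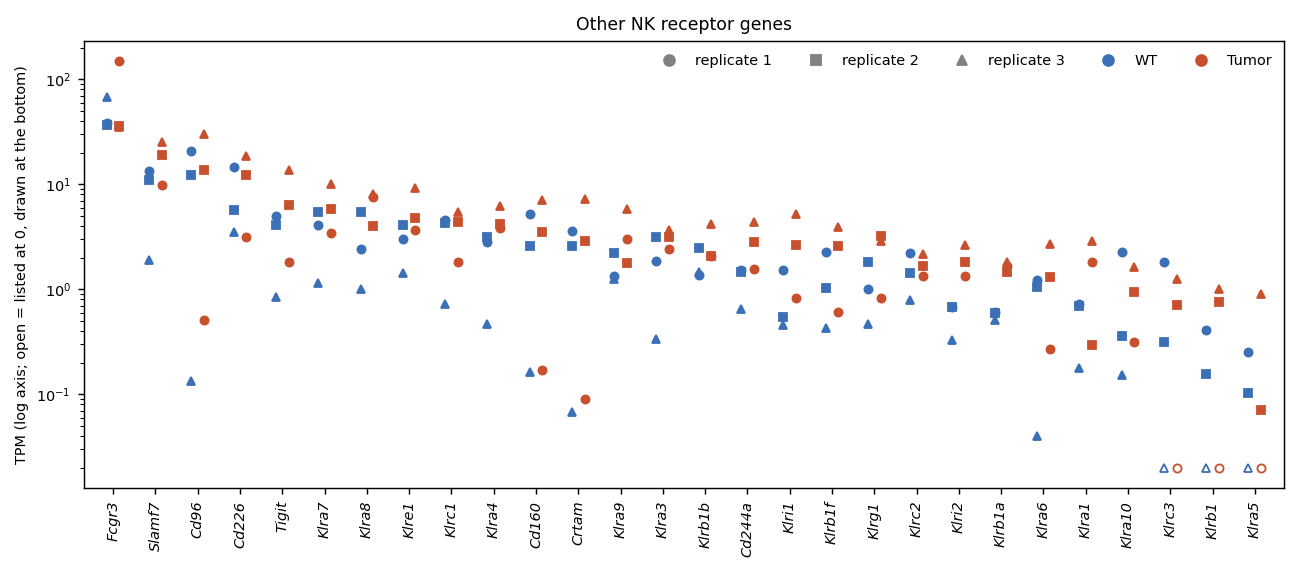
TPM (log axis) of the 28 other NK receptor genes in each library, ordered by mean level; blue is WT, red is Tumor, symbols are replicates and open symbols at the bottom are values listed at 0. Most genes lie under 10 TPM, and WT replicate 3 (blue triangles) is often the lowest library.

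Further granule and killing genes were mixed. All 25 were listed and 17 were tested, 15 with a positive difference and 2 with a negative one, 0 called, with a median of 0.49 (76.8% of tested genes were positive). With replicate 3 left out that median became 0.06 (WT) or 0.15 (Tumor), and with replicate 1 left out 0.85 (WT) or 0.82 (Tumor). Of the 25, 4 separated the groups upward (9.17% of all genes above 0 in the table), and they are named after their values were seen: Ccl3, Ccl4, Ctsc and Serpinb9b, the last under the filter and not tested. With scaling factors Ctsc and Serpinb9b still did (3.52% and 3.32% of tested genes). Ctsc, the protease that activates granzymes and is also made by macrophages, stood at 107, 75.0 and 96.6 TPM against 124, 149 and 165 TPM. Srgn, the granule proteoglycan, stood at 263, 218 and 106 TPM against 134, 310 and 484 TPM, and Stxbp2, which serves granule release, at 133, 108 and 53.3 TPM against 72.8, 131 and 201 TPM. Gzmd, Gzme, Gzmg and Gzmn were listed at 0 in all 6 libraries. Gzmc and Gzmk were listed at 0 in WT replicate 3 and Tumor replicate 1 and above 0 in the other 4.

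Adaptors, cytokines and ligands complete the pathway. Of 15 adaptors and kinases 13 were tested, all with a positive difference (76.8% of tested genes) and 0 called, with a median of 0.93. Dropping replicate 3 lowered that median to 0.10 (WT) or 0.48 (Tumor), and dropping Tumor replicate 1 raised it to 1.71. Of the 15, 4 separated the groups upward (9.17% of all genes above 0 in the table): Tyrobp, Fcer1g, Lat2 and Sh2d1b1, the last under the filter and not tested. With median-ratio factors Tyrobp alone of them did (3.52% of tested genes), and with upper-quartile factors Tyrobp and Lat2 (3.32%). Tyrobp, Fcer1g and Lat2 are also made by myeloid cells. Tyrobp, or DAP12, stood at 192, 193 and 120 TPM against 434, 265 and 332 TPM, and Fcer1g at 134, 157 and 102 TPM against 308, 199 and 199 TPM. Ptpn6, the phosphatase SHP-1, stood at 197, 110 and 11.7 TPM against 33.6, 287 and 403 TPM. Of 18 genes of the IL-2, IL-12, IL-15 and IL-18 axis 16 had a positive difference (76.8% of tested genes) and 2 a negative one, 0 were called, and the median was 0.51. Dropping replicate 3 lowered it to 0.08 (WT) or 0.12 (Tumor), and dropping replicate 1 of either group raised it to 0.77. Il18, which primes NK cells, was at 20.8, 20.2 and 21.1 TPM against 35.5, 27.9 and 37.2 TPM. It separated the groups, as did Stat5b (2 of 18, against 11.8% of tested genes). With scaling factors Il18 alone did so (3.52% and 3.32% of tested genes). The most abundant of that list were Il2rg, at 234, 171 and 17.1 TPM against 31.3, 228 and 410 TPM, Jak1, at 107, 69.9 and 60.1 TPM against 72.1, 119 and 165 TPM, and Il15ra, at 52.2, 51.1 and 74.3 TPM against 61.9, 61.1 and 51.4 TPM.

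Among ligands of the member receptors or of related NK receptors, and receptors of Ccl5, 11 of 15 were in the table and 7 were tested. All 7 were positive (76.8% of tested genes) and 0 called, with a median of 0.54. It came to 0.24 (WT) or 0.28 (Tumor) when replicate 3 was dropped and came to 0.82 when Tumor replicate 1 was. H2-T23, the Qa-1 ligand of CD94, stood at 212, 214 and 105 TPM against 154, 274 and 377 TPM. Clec2d, a ligand of Klrb1 receptors, stood at 189, 246 and 151 TPM against 217, 212 and 223 TPM, and Clec2i at 32.0, 17.4 and 2.16 TPM against 5.08, 38.5 and 53.4 TPM. The NKG2D ligand Raet1d was under the filter, at 0.132, 0.230 and 0 TPM against 0.916, 0.273 and 0.795 TPM. It was the 1 gene of the 11 that separated the groups upward (9.17% of all genes above 0 in the table), and with scaling factors 0 did. Of 8 genes of type 1 innate lymphoid cells and tissue residency 7 had a positive difference (76.8% of tested genes) and 0 were called. Against 15% of tested genes without overlap in either direction, all 8 overlapped between the groups. Their median of 0.38 turned to -0.26 when WT replicate 3 was dropped. It came to 0.05 or 0.16 when Tumor replicate 3 or 2 was dropped, and to 0.69 (WT) or 0.61 (Tumor) when replicate 1 was. Its most abundant were Il7r, the IL-7 receptor, at 46.2, 27.5 and 0.561 TPM against 8.88, 33.0 and 78.5 TPM, Tnfrsf25 at 27.1, 22.9 and 10.8 TPM against 15.3, 24.2 and 25.9 TPM, and the activation marker Cd69 at 27.7, 20.96 and 0.253 TPM against 1.75, 23.3 and 46.3 TPM. For all 3, WT replicate 3 and Tumor replicate 1 were the lowest of their group. Of 10 genes of NK maturation and migration 8 were tested, all positive (76.8% of tested genes) and 0 called. Their median of 0.48 turned to -0.18 (WT) or -0.0042 (Tumor) when replicate 3 was dropped. It came to 0.21 when Tumor replicate 2 was dropped, and to 0.73 (WT) or 0.89 (Tumor) when replicate 1 was. Among its most abundant, the transcription factor Klf2 stood at 127, 141 and 77.7 TPM against 98.8, 149 and 191 TPM, and the chemokine receptor Cxcr4 at 107, 102 and 7.95 TPM against 16.3, 66.0 and 134 TPM. Of the 10, 1 separated the groups upward, S1pr5, named after its values were seen (9.17% of all genes above 0 in the table). With either set of scaling factors S1pr5 still did (3.52% and 3.32% of tested genes).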

How the data were processed

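Poly-A RNA was sequenced from 6 fat libraries, per the labels' protocols with an RNA integrity above 7. The submitters' processing notes name GRCm38.p6 and DESeq2, neither with a role. Aligner, counter and annotation are also not given in the sources used here. A single table named as raw counts was deposited, whose values are TPM computed by the authors, since every column sums to 1000000 and values are not whole. The members and lists were chosen with earlier results of these data known.

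The 14144 genes that reached 1 TPM in 3 or more libraries were tested with limma 3.58.1 (R 4.3.3) on log2(TPM + 1), with trend and robust moderation, group alone, and Benjamini-Hochberg adjustment at 0.05. Differences on this scale understate changes of low genes. The procedure was also run on simulated data in which genes varied independently. In these libraries genes did not vary independently, as the lymph node transcripts moved together, so that run gives no measure of power here. TPM are shares, so abundant lymphoid or muscle transcripts lower all others. The worth of a fragment was read from steps in genes with 1 transcript over 1 kb, 83.0% to 86.3% of low values lying within 0.15 of a whole multiple, and intervals and floors cover counting error only. Coordinates are from GENCODE M21, where 35859 symbols matched 1 gene.

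Named were all 10 members, from each other pathway list the 3 genes highest in mean TPM, from each cell list those a result turns on in place of the highest 2, and Msra, Cd79a and Glycam1 as checks. A gene that this rule would name is not reported here. Glycam1, of high endothelial venules, stood at 385, 344 and 0.319 TPM against 1.23, 363 and 788 TPM. Alternatives were left-out libraries, the replicate number as a block, pseudocounts of 0.1 and 0.5, filters, scaling factors, limma without robust moderation or trend, and T or B cell lists as covariates. Figures used matplotlib 3.10.9 under Python 3.11.15.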

Additional observations from a re-analysis of the deposited data

How the results depend on the processing

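Of the 10 members 0 were called under any of the 18 alternatives to the limma fit. Over all genes 0 were called except with the T or the B cell list as covariate, where 1 was, and it was no member. At an unadjusted p below 0.05 limma found 771 genes with all libraries and 183 to 2546 under the alternatives. The replicate numbers were not treated as pairs in the main fit. Deviations of same-numbered libraries correlated at -0.76, 0.20 and -0.84, and those of the node-poor WT replicate 3 and Tumor replicate 1 at 0.85. With the replicate block 0 genes passed, as without it. Of all pairs of a WT and a Tumor library the node-poor pair correlated highest. The correlations cannot show whether samples were paired, and what drives them was not tested. Gzma, Gzmb, Klrb1c and Ncr1 kept a positive difference in every alternative that tested them, from 0.96 to 1.46, 0.75 to 1.51, 0.81 to 1.42 and 0.51 to 1.04. The filter of 5 TPM in 3 libraries did not test Gzmb, Klrb1c, Ncr1 and Eomes. With 1 library left out, the differences ran from -0.33 to 1.18 for Prf1, -0.69 to 1.47 for Nkg7, -0.34 to 1.65 for Klrd1, -0.050 to 0.89 for Klrk1, -0.30 to 1.02 for Eomes and -1.46 to 1.58 for Ccl5, each lowest without WT replicate 3. They were highest without Tumor replicate 1, or for Eomes without WT replicate 1. Leaving out Tumor replicate 3 also turned Prf1, Nkg7, Klrd1 and Ccl5 negative, and leaving out Tumor replicate 2 turned Ccl5 negative. Ccl5 was at -0.18 without both node-poor libraries, -0.0097 with the T cell and -0.39 with the B cell covariate. The cause was not tested. The member median of 0.63 ran from -0.18 (WT replicate 3 left out) to 1.40 (Tumor replicate 1 left out). Leaving out WT replicate 1 or 2 gave 1.09 or 1.01, leaving out Tumor replicate 3 gave 0.03, and it ran from 0.25 to 0.89 under the other alternatives. The count of 3 members without overlap was 3 to 4 with libraries left out and 1 with median-ratio or upper-quartile factors. Of tested genes, 11.8% separated upward with all libraries, 40.9% without both node-poor libraries, and 3.52% and 3.32% with the factors. Fewer libraries separate more easily, so a count that holds when libraries are left out does not show stability. The share with a single library left out was not computed. Low members such as Gzmb rest on about 40 to 221 fragments a library, which limits small gaps.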
